A study of Mus musculus with 8 samples.

Results

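Mast cell genes were followed in RNA from liver macrophage preparations of C57BL/6 mice, an inbred strain, that ate a normal diet (ND) or a western diet (WD), with 4 libraries for each. Library numbers run apart by diet (21 to 29 for WD, 31 to 35 for ND), so that diet and any order of handling that they follow cannot be told apart. No genotype, transgene, drug, age or sex is given in the labels used here, nor how long the diets were fed or what they contained, and how the macrophages were isolated is also not given. The data are 1 table made by the authors, in which each gene has a mean normalized read count over the comparison, a log2 fold change with its standard error (SE), a p-value and an adjusted p-value. Its heading and name write the groups as WDV and NDV, a V that the sources leave unexplained, and they were read here as the WD and ND libraries. Every gene in the table has an unadjusted p below 0.05 and a change of more than 2-fold, so a gene that is not listed may have missed a limit or may not have been measured.

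The genes were chosen by symbol from the listed genes: the tryptases Tpsb2 and Tpsab1, the carboxypeptidase Cpa3, the chymase Cma1, the IgE receptor chain Fcer1a, the receptor tyrosine kinase Kit, and any gene named Mcpt with a number. The rule found 8 of 2386 listed genes, since it added Mcpt4 and Mcpt8. Because a gene had to be in the table to be found, its place past the table's limits is part of the choice, and the fold changes of these 8 genes are given as a description with no test of their own. The member nearest to the fold limit was Mcpt8, at a log2 fold change of 1.60 in the authors' deposited table, and the one with the largest p-value was Fcer1a (p = 0.00171 in the authors' deposited table). Mcpt1, Mcpt2 and Mcpt9, which the same rule would have taken, were not listed and have no values here.

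Mast cells are tissue-resident immune cells that arise from bone marrow progenitors and depend on stem cell factor, the ligand of KIT. Their granules store proteases of a few families, the trypsin-like tryptases, the chymotrypsin-like chymases and carboxypeptidase A3, bound to heparin and other proteoglycans. When antigen crosslinks IgE on the high-affinity receptor, of which Fcer1a encodes the IgE-binding chain, the granules are released. In mice, mast cells of connective tissue carry Cma1, Mcpt4, Tpsb2 and Cpa3, mast cells of mucosa carry Mcpt1 and Mcpt2, and Mcpt8 is the protease of basophils. KIT is not restricted to mast cells. It also marks haematopoietic progenitors and is made by part of the liver sinusoidal endothelium.

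The promoters of 6 of the 8 genes were found in the RefSeq promoter table (build GRCm38.p6, the same assembly as mm10). Those of Tpsb2 and Tpsab1 were not matched. The 250 bases before the start are shown for Cpa3 and Fcer1a, which hold the GATA-type motif AGATAA, for Mcpt4, which had the largest fold change of the 8 genes, and for Kit, which moved the other way. Capitals mark AGATAA as read on either strand, so that it appears as TTATCT where it lies on the opposite strand. Other GATA-type forms were not searched, so a sequence without capitals is not shown to lack them. The Mcpt4 sequence holds tgataa, which differs in its first letter and is left unmarked.
Cpa3 (chr3:20242182-20242431, minus strand): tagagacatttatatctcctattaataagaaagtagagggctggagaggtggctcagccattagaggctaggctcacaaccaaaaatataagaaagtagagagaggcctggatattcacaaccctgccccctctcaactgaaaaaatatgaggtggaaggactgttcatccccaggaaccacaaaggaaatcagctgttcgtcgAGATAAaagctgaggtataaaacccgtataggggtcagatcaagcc
Fcer1a (chr1:173227230-173227479, minus strand): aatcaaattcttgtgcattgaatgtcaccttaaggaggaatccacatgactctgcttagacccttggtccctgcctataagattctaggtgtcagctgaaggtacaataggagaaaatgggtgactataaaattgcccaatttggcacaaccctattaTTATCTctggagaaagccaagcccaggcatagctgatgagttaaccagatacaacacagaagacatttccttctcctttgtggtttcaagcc
Mcpt4 (chr14:56062311-56062560, minus strand): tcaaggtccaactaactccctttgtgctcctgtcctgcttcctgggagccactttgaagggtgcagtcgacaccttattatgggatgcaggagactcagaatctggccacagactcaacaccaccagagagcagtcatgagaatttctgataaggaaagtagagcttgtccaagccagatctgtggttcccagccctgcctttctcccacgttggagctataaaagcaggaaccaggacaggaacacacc
Kit (chr5:75574737-75574986, plus strand): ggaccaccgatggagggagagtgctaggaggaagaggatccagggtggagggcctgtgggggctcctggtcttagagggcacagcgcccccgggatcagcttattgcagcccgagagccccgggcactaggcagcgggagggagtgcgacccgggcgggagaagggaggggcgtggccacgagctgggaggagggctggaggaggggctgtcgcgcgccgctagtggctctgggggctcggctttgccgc

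In the Cpa3 promoter AGATAA lay 46 to 41 bases before the start, and in the Fcer1a promoter its complement lay 92 to 87 bases before it. Over the full window of 250 bases before to 50 after the start, both strands were searched, and a gene counted if any of its promoters held the motif. AGATAA was found in 2 of the 6 matched genes and in 12.7% of all 27025 genes (11.2% of 32851 promoters). The E-box CANNTG was found in 5 of the 6 genes (not in Mcpt4) and in 75.0% of all genes (72.3% of promoters). CATGTG is an E-box of the type that MITF can bind and is also counted under CANNTG. It was found in 1 of the 6 genes, Fcer1a, and in 15.9% of all genes (14.2% of promoters). A match is a description of letters in this window and not a binding site. Neither is a missing match a sign that a factor does not bind.

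Under western diet 7 of the 8 genes were higher and 1, Kit, was lower. In the authors' deposited table the adjusted p of each of the 8 lay below 0.05, which was the limit used for a call here. Over all 17531 tested genes, a number recovered from the adjusted p-values, 3.0% were called higher and 8.35% were called lower with more than 2-fold change. Because the rule used the same comparison, nothing is read from the members' count against these shares. The median log2 fold change of the 8 genes was 3.56, beside -1.55 over all listed genes of the authors' deposited table. A mean weighted by 1/SE squared was -0.57 instead, since Kit has by far the smallest SE. The 7 higher members had a median of 3.75, beside 1.34 over the called higher genes of the authors' deposited table.

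**Figure D1:**
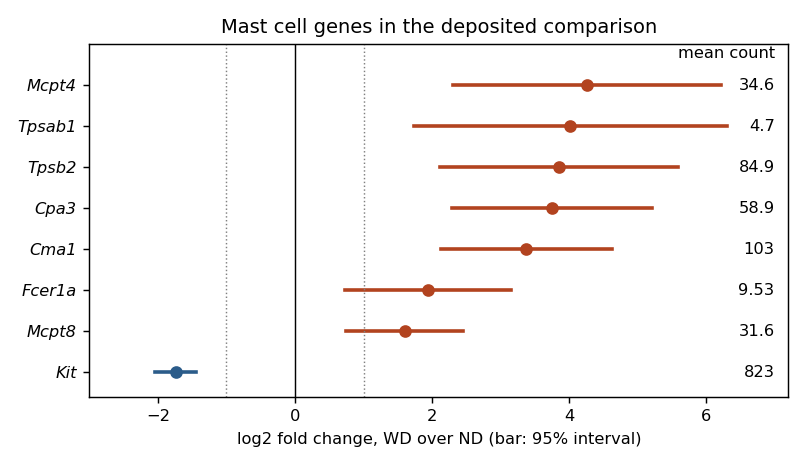
Log2 fold change (WD over ND, horizontal axis) of the 8 genes from the authors' deposited table, with 95% intervals from the SE as bars, dotted lines at 2-fold, and the mean normalized count of each gene at the right. The 5 genes at the top lie between 3.38 and 4.26 with wide bars, Fcer1a and Mcpt8 lie below 2, and Kit lies at -1.74 with the narrowest bar.

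The 5 granule protease genes other than Mcpt8, the chymases Mcpt4 and Cma1, the tryptases Tpsab1 and Tpsb2, and Cpa3, lay between 3.38 and 4.26 on the log2 scale of the authors' deposited table. Mcpt4, a chymase (ENSMUSG00000061068, chr14:56059629-56062313, mm10 with GENCODE M21 genes), had a log2 fold change of 4.26 ± 0.997 SE in the authors' deposited table, a 19.1-fold rise (adjusted p 0.000162). Its 95% interval ran from 4.94-fold to 74.1-fold, so that the rise lay wholly beyond 2-fold while its size was not well fixed. Mcpt4 held place 4 among the 706 listed genes with a positive fold change in the authors' deposited table. The rise of Tpsb2, the main tryptase gene of mouse mast cells (ENSMUSG00000033825, chr17:25366305-25369098), was 14.4-fold, with a log2 fold change of 3.85 ± 0.89 SE (adjusted p 0.000122) in the authors' deposited table. Cpa3, whose product trims peptides that chymases have cut (ENSMUSG00000001865, chr3:20215620-20242181), had risen 13.4-fold, by 3.75 ± 0.74 SE on the log2 scale (adjusted p 5.23e-06) in the authors' deposited table. For Cma1, the chymase gene with the smallest p-value of the higher members (ENSMUSG00000022225, chr14:55941451-55944675), the authors' deposited table gave a 10.4-fold rise (log2 3.38 ± 0.64 SE, adjusted p 1.42e-06). On the log2 scale the 95% intervals of Tpsb2, Cpa3, Cma1 and Mcpt4 overlapped over most of their length. As folds, their lower ends lay between 4.32-fold and 4.94-fold.

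Tpsab1, the other tryptase gene (ENSMUSG00000024173, chr17:25343245-25345562), is not known to yield its protein in the C57BL/6 strain, which carries a splice site change in it. It was nevertheless listed, with a mean normalized count of 4.70 and a log2 fold change of 4.02 ± 1.17 SE (adjusted p 0.00328) in the authors' deposited table. Both tryptase genes start within 20.7 kb of each other. Per kilobase of exon, the mean count of Tpsb2 was 23.7 times that of Tpsab1. No stretch of 50 bases in the annotated protein-coding transcripts of Tpsab1 also occurred in those of Tpsb2 or of any other gene, so that exact reads of this length can be told apart. In Cma1 5.38% of such stretches also occurred in Gm48934, and in Mcpt4 5.48% also occurred in Cma2, a neighbouring chymase gene that was not listed. How the authors treated reads that match several genes is not given in the sources used here.

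Values of single libraries were not analysed here. The mean count and the fold change together fix what the level of each group would be with 4 libraries each, and these implied levels show how few reads stand behind the ND side. They are normalized counts per library, calculated here and approximate. Cma1 went from 18.1 in ND to 187 in WD, Tpsb2 from 11.02 to 159, and Cpa3 from 8.16 to 110. The implied ND levels were lower for Mcpt4, at 3.43 against 65.8 in WD, and for Tpsab1, at 0.546 against 8.85. For Tpsab1 this amounts to 2.18 counts over the 4 ND libraries together, under the 3 counts that serve as a floor, so its fitted fold change is no measure of size. Against that floor, its WD level was 11.8-fold higher. Added up, the 7 higher genes went from 60.8 to 593 normalized counts per library, 9.75-fold. In a bulk sample more cells of a type and more RNA per cell cannot be told apart.

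The spread between libraries could be approximated from the SE, by taking away the part that counting alone gives. Because the SE comes from the authors' fitted model, the result is not a spread measured in the libraries. What was left for Mcpt4 corresponded to a coefficient of variation of 89.5% between libraries of a group, for Tpsb2 to 84.1%, for Cpa3 to 68.2% and for Cma1 to 59.9%. Called higher genes with mean counts of 10 to 200, of which there were 319, had a median of 28.1%. All 4 connective tissue proteases lay above that median, as did Mcpt8 (37.1%). Tpsab1 (58.0%) and Fcer1a (45.7%) have mean counts under 10 and are not set against it. A gene with a large fold change can be called at a larger SE, so the comparison is not like for like. Across all called higher genes the median log2 fold change was 1.34. The 5 called genes nearest the members' median fold change, with at least the median mean count, had 99.9% (Nos2), 66.5% (Ly6i), 48.3% (Ly6c2), 31.4% (Kctd19) and 31.3% (Gzmc). Counting error made up 7.81% of the squared SE of Cma1 and 6.42% of that of Tpsb2, but 74.3% of that of Tpsab1. Which libraries were high or low, and whether the groups overlapped, was not analysed here.

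**Figure D2:**
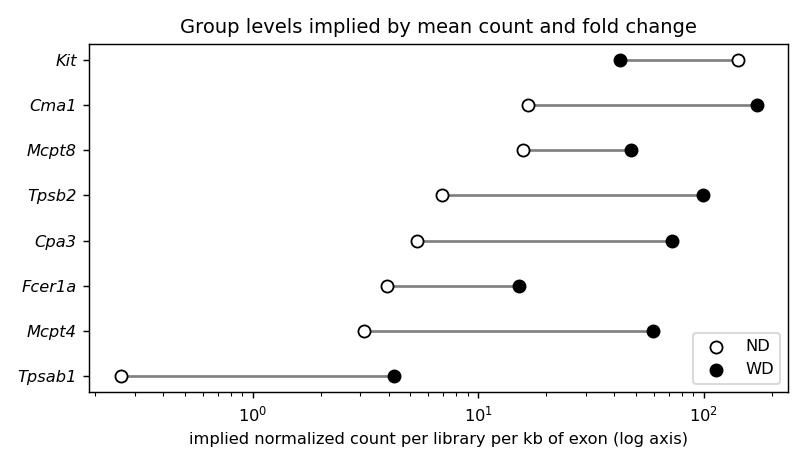
Implied normalized count per library and kilobase of exon (horizontal log axis) of the 8 genes in ND (open points) and WD (filled points), calculated from the authors' mean count and fold change. Exon length is taken over all annotated transcripts of a gene, which may set Kit too low. Kit lies highest in ND at 142 and falls to 42.5, whereas Cma1 rises from 16.6 to 172 and lies highest in WD.

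Mcpt8 and Fcer1a, which basophils express, had smaller fold changes. Mcpt8 (ENSMUSG00000022157, chr14:56082166-56085273) was 3.03-fold higher in the authors' deposited table (log2 1.60 ± 0.43 SE, adjusted p 0.00140), with a 95% interval from 1.68-fold to 5.45-fold. Fcer1a (ENSMUSG00000005339, chr1:173221284-173227214) was 3.85-fold higher in the authors' deposited table (log2 1.94 ± 0.62 SE, adjusted p 0.00845), with a 95% interval from 1.66-fold to 8.93-fold. Both intervals reach below 2-fold. The difference between these fold changes and those of the connective tissue proteases was not tested. The implied ND level of Mcpt8, 15.7 normalized counts, was close to the 18.1 of Cma1, but in WD Mcpt8 reached 47.6. Fcer1a went from 3.93 to 15.1 normalized counts per library. In the ND group, levels per kilobase of exon were thus alike for Mcpt8 (15.7) and Cma1 (16.6), while in WD Cma1 stood at 172 and Mcpt8 at 47.6.

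Kit moved against the other 7 genes and was the most abundant of the 8. The receptor gene (ENSMUSG00000005672, chr5:75574916-75656722) had a log2 fold change of -1.74 ± 0.15 SE in the authors' deposited table, a 3.34-fold fall (adjusted p 6.04e-28), with a 95% interval from 2.72-fold to 4.12-fold. By p-value it held rank 195 of the 17531 tested genes, where the first higher member, Cma1, held rank 1379 and Fcer1a, the last, rank 3554. Its implied level fell from 1267 normalized counts per library in ND to 379 in WD, a loss larger than the 593 counts that the 7 higher genes reached together. Per kilobase of exon Kit was 8.58 times as abundant as Cma1 in ND, and in WD Cma1 was 4.04 times as abundant as Kit. These ratios depend on the exon length, taken over all annotated transcripts of a gene. For Kit that is 8911 bases, while its protein-coding transcripts hold 5249 different stretches of 50 bases. Its level per kilobase may thus be too low. The spread between libraries implied for Kit was a coefficient of variation of 14.4%, the smallest of the 8 genes.

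Markers of another cell type that carries KIT fell in the same comparison. All 16 genes of a list of sinusoidal endothelial markers, a list chosen knowing that such genes are lower in these data, were called lower, with a median log2 fold change of -3.16 in the authors' deposited table, and their summed implied level went from 83461 normalized counts per library in ND to 11664 in WD. Of 9 markers of progenitors that carry KIT, Kit included, 4 fell and 2 rose. Earlier results were known when this list was chosen too. Neither list is set against the shares called over all tested genes. Hlf and Meis1, transcription factors of stem cells, stood at -2.45 ± 0.54 and -2.19 ± 0.25 in the authors' deposited table, and Flt3, a cytokine receptor of progenitors and dendritic cells, at 1.38 ± 0.26. Cd34, Slamf1 and Msi2 were not listed. The part of these cells in the fall of Kit was not tested.

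**Figure D3:**
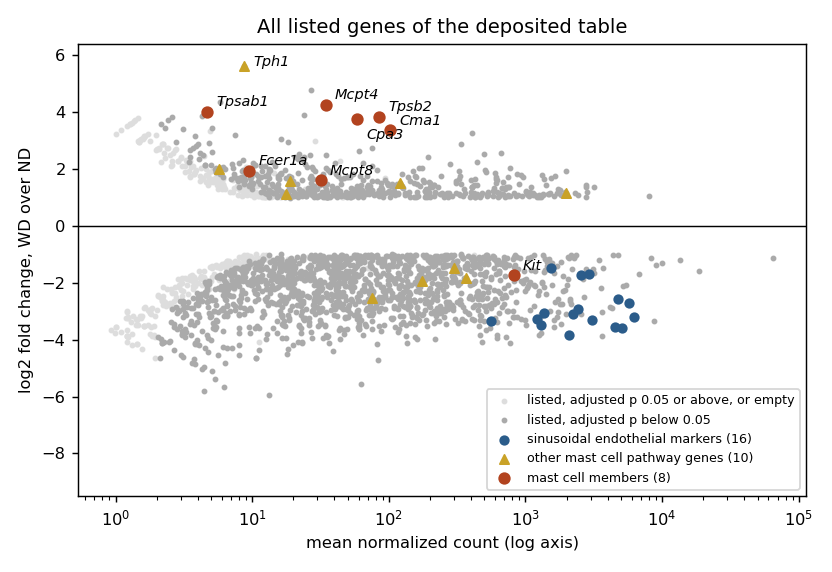
Log2 fold change (vertical axis) against mean normalized count (horizontal log axis) for the 2386 listed genes, with the 8 mast cell genes, 10 further listed genes of the mast cell pathway lists and the 16 sinusoidal endothelial markers marked. The 5 connective tissue mast cell and tryptase genes lie near the upper edge at mean counts from 4.70 to 103, and Kit lies among the lower genes at 823, beside the endothelial markers.

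Kitl, the ligand gene of the KIT axis, fell as Kit did. Of 15 genes of the axis and of the mast cell transcription factors, 4 fell, Kit itself and 3 more, none rose and 11 were not listed, where 8.35% of all tested genes were called lower. Because the rule took Kit from the same comparison and the list was chosen with earlier results known, nothing is read from this count against that share. Kitl, which encodes stem cell factor, stood at log2 -1.49 ± 0.16 in the authors' deposited table, 2.82-fold lower. Zfpm1, a cofactor of GATA factors, stood at -1.95 ± 0.16 and Tal1, a transcription factor of blood and endothelial precursors, at -2.54 ± 0.26 in the authors' deposited table. Gata1, Gata2 and Mitf, factors that mast cells need, were not listed. The 16 endothelial markers fell beside this list too, and their part in it was not tested.

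Among 15 genes of the IgE receptor and its first signalling steps, 3 rose, 1 fell and 11 were not listed. This list and those below were also chosen with earlier results known, and some hold genes found by the rule. Nothing is therefore read from their counts against the shares called higher or lower over all tested genes. Ms4a2, the beta chain that joins Fcer1a in the receptor, rose in the authors' deposited table by nearly the same amount as Fcer1a, at log2 1.99 ± 0.72 (adjusted p 0.0237) on a mean normalized count of 5.75. Fcer1g, the gamma chain that macrophages and NK cells also use, was not listed, nor were the kinase genes Lyn, Fyn, Syk and Btk. The adaptor gene Grap2 rose (1.52 ± 0.27) in the authors' deposited table. T cells express it too. Of 20 T and NK cell markers 10 rose and none was lower in the same comparison. The T cell genes Cd3e, Cd3d, Cd3g, Cd4, Cd2, Cd5 and Lck were not listed. Of other T cell genes in the authors' deposited table, Cd8a was called higher (1.73 ± 0.59, adjusted p 0.0151). Trac was listed there without passing (1.21 ± 0.54, adjusted p 0.0766). The risen markers with the smallest p were Klrd1, Gzmb, Il2rb, Ccl5, Ncr1 and Nkg7, and whether T cells rose was not tested. The summed implied level of the listed T and NK cell markers went from 1330 to 3691 normalized counts per library, and their part in the value of Grap2 was not tested. Plcg1, a phospholipase gene with a wide expression, fell (-1.83 ± 0.16 in the authors' deposited table).

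Genes for mast cell mediators and surface receptors were mostly outside the table. Of 24 such genes, 3 rose, none fell, 1 was listed without passing and 20 were not listed. Tph1, the enzyme of serotonin synthesis outside the brain, had the largest positive fold change of all 706 listed genes with one, at log2 5.62 ± 1.12 in the authors' deposited table (adjusted p 6.19e-06). Its mean normalized count was 8.73, and its implied ND level of 0.348 per library, or 1.39 counts over the group, lay under the floor, so that the size of this fold is not fixed either. Cd200r3, an activating receptor of mast cells and basophils, rose 2.99-fold (1.58 ± 0.51) in the authors' deposited table. Ptgs2, the inducible cyclooxygenase that many cell types make, stood at 1.17 ± 0.27 in the authors' deposited table. Rab27b, a gene of granule secretion, had a log2 fold change of 1.13 ± 0.47 in the authors' deposited table and missed the limit (adjusted p 0.0540). Hdc, the histamine-forming enzyme, Hpgds, which makes prostaglandin D, Il1rl1, the receptor of interleukin-33, and the connective tissue mast cell receptors Mrgprb1 and Mrgprb2 were not listed.

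Lists for kinds of mast cells and for related cells share genes, and Fcer1a, Ms4a2 and Cd200r3 of the basophil list are expressed by mast cells too. Of 7 connective tissue mast cell markers, 4 rose, all of them members, and the 3 Mrgprb receptors were not listed. None of the 4 mucosal markers, Mcpt1, Mcpt2, Mcpt9 and Itgae, was listed. Of 11 basophil markers, 4 rose (Mcpt8, Fcer1a, Ms4a2 and Cd200r3), Ccr3 was listed at 1.07 ± 0.45 (adjusted p 0.0578) in the authors' deposited table, and the other 6, among them the basophil protease gene Prss34, were absent from it. Their listed members summed to 67.0 normalized counts per library in ND and 175 in WD, while the listed connective tissue markers went from 40.7 to 522. None of 10 markers of group 2 innate lymphoid cells, some of which carry KIT, was listed. All 13 resident macrophage markers, the labelled cell type, were outside the table as well. Their levels are therefore not known here and the label could not be checked.

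**Figure D4:**
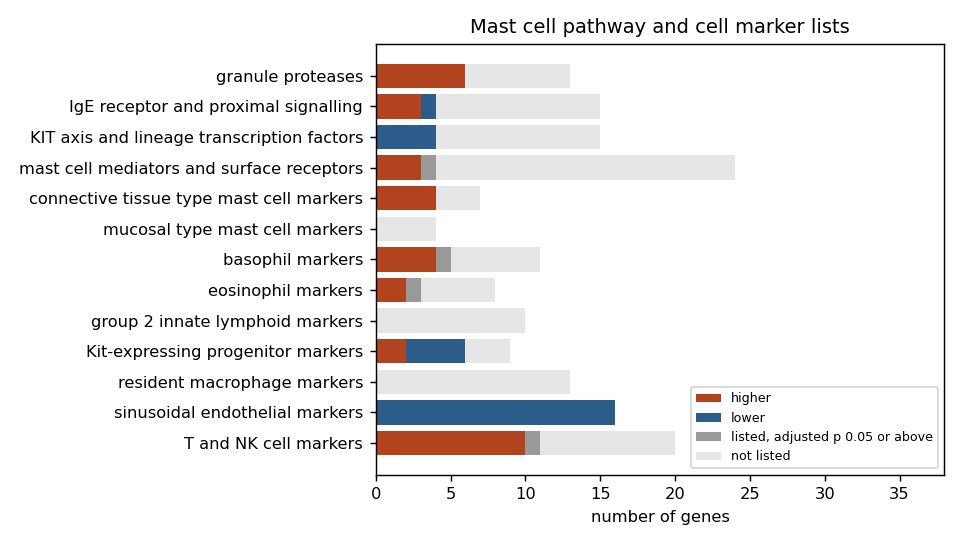
Number of genes (horizontal axis) of each mast cell pathway or cell marker list that were called higher, called lower, listed without passing, or not listed in the authors' deposited table. Granule proteases have 6 higher genes and none lower, the KIT axis has 4 lower and none higher, and the mucosal mast cell, innate lymphoid and resident macrophage lists have no listed gene.

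The members on chromosome 14 belong to a cluster of chymase and granzyme genes. From Cma1 to Gzmb, chr14:55941451-56262260, the annotation holds 15 protein-coding genes over 321 kb. Of these, 5 were listed and all 5 were higher: Cma1, Mcpt4, Mcpt8, Gzmc and Gzmb. The rule itself took Cma1, Mcpt4 and Mcpt8 from this comparison. Over all tested genes 3.0% were called higher and 8.35% lower, and nothing is read from the cluster's count against these shares. Gzmc and Gzmb, granzymes of cytotoxic lymphocytes, stood at 2.62 ± 0.37 and 1.51 ± 0.24 in the authors' deposited table. Listed genes were interspersed with unlisted ones along the cluster, with Cma2, Mcpt1, Mcpt9 and Mcpt2 unlisted between Cma1 and Mcpt4, and Ctsg, the cathepsin G gene of neutrophils, among the 6 unlisted genes between Mcpt8 and Gzmc. Nynrin, whose start lies 90.7 kb from that of Cma1 on the far side, was lower (-2.38 in the authors' deposited table). Of the protein-coding genes within 400 kb of the tryptase genes, the authors' deposited table listed Tmem204 alone besides the pair, at -3.59. Other kinds of genes were not looked for there. Within the same distance of Fcer1a, Ackr1 (-2.51) and Cadm3 (-1.51) were lower and the interferon-inducible genes Ifi213, Ifi214 and Ifi206 were higher (1.47 to 2.18) in the authors' deposited table.

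**Figure D5:**
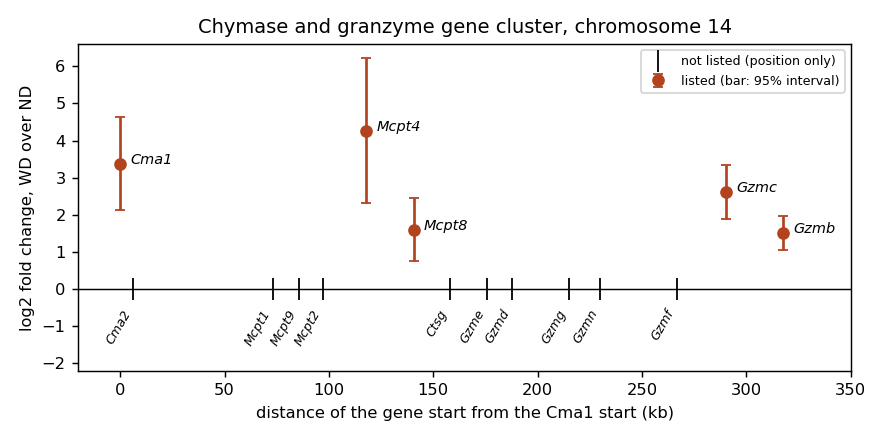
Log2 fold change with 95% interval (vertical axis) of the listed genes of the chromosome 14 cluster by the distance of their start from that of Cma1 (horizontal axis, kb), with ticks at 0 for the positions of genes that were not listed and have no value. Mcpt4 at 118 kb has the highest value, and its neighbour Mcpt8 at 141 kb the lower value of 1.60.

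With 1 fold change per gene, likeness between genes could be measured only as the distance of their log2 fold change from the members' median of 3.56. Among called genes of at least the median mean count of 37.5, the 5 nearest that are no members were Nos2 (3.26 ± 1.02), Ly6i (2.89 ± 0.68), Kctd19 (2.76 ± 0.37), Gzmc and Ly6c2 (2.55 ± 0.50) in the authors' deposited table. Without the limit on mean count the nearest were Gm35028, Gm24798, Gm15056, Dio1 and Gm47242, with mean normalized counts from 2.16 to 5.05 in the authors' deposited table. Likeness of this kind rests on 1 comparison of the same 8 libraries.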

How the data were processed

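RNA of liver macrophage preparations from 4 ND and 4 WD mice was sequenced, per the labels' protocols after oligo(dT) enrichment and random priming. The build mm10 and the tools HISAT2, STAR and STAR-Fusion, StringTie, featureCounts, DESeq and edgeR appear in the submitters' processing notes, with no version or role. Per the file headers, the authors deposited a mean normalized count (signal), a log2 fold change and its SE, a test score, a p-value and an adjusted p-value per gene, with column names that DESeq2 uses. The score equalled fold change over SE within 7.1e-08. The largest p was 0.04995 and the smallest absolute log2 fold change 1.00011. The 77 genes with an empty adjusted p were not called. Depth per library is unknown. Whether the libraries of a group came from separate mice rests on the series design, which gives 4 mice per diet.

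Calls use the authors' adjusted p below 0.05, and no model was refitted. The number of tested genes was the whole number that made most ranks (p times number over adjusted p) whole within 0.02, for 91.0% of genes. The implied ND level is 2 times the mean count divided by 1 plus the fold change. On simulated counts with unequal library sizes it was set against the mean of the same simulated normalized counts in each group. It departed from that mean by a median of 0.194%, with a 95th percentile of 5.15%, over 2342 genes. This covers the arithmetic only, not the sampling error of 4 libraries, which was not measured. The step on ranks returned 15000 where 15000 genes had been drawn. The coefficient of variation between libraries assumes equal library sizes and takes the counting part out of the squared SE. This can fail at low counts. For Tph1 the counting part came to 121% of the squared SE, and the coefficient was set to 0. Intervals (95%) are normal intervals from the SE. Genes, exons and shared stretches came from GENCODE M21, and promoters from RefSeq. Python 3.11.15, pandas 2.3.3 and matplotlib 3.10.9 were used. All members were named. Other names were drawn from at most the 6 listed genes of each list with the smallest p. Further names came from the 5 genes nearest in fold change and from listed genomic neighbours. Not every gene allowed by this rule is named, and Cd8a and Trac were named outside it. A few list genes are not reported here and were left out of the counts. The members, lists and limits were chosen with earlier results of these data known.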

Additional observations from a re-analysis of the deposited data

How the results depend on the processing

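Settings were changed one at a time. The count of 7 higher members and 1 lower member was the same with an adjusted p below 0.01, where 2.20% of all tested genes were called higher and 7.38% lower. The authors' unadjusted limit could not change it, as every listed gene meets that limit. With a 95% interval wholly beyond 2-fold it was 5 higher (without Fcer1a and Mcpt8), where 0.650% of all tested genes were so called, and with a mean count of at least 10 it was 5 higher (without Fcer1a and Tpsab1), beside 2.61% of tested genes. The median log2 fold change of the members, 3.56, was 3.56 without the Mcpt genes, 3.38 with the tryptases as 1 gene and, added after the data were seen, 3.47 with Tpsab1 set against the floor. Keeping called members only removes no gene. A mean weighted by 1/SE squared gave -0.57, because Kit has the smallest SE and then outweighs the rest; without Kit, added after the data were seen, it gave 2.68. With the interval wholly beyond 2-fold the number of higher genes became 0 for the IgE receptor, basophil, eosinophil and progenitor lists, 1 for mediators and surface receptors and 2 for T and NK cells. A mean count of at least 10 left 1 higher gene in the IgE receptor list and 2 in the basophil list, and an adjusted p below 0.01 left 1 in each of the eosinophil and progenitor lists. The number of tested genes was 17531 with both tolerances. With 250 bases before the start only, the motif AGATAA was still in 2 of 6 member genes and CANNTG in 4. At the ends of the 95% interval of its fold change, the implied ND level of Mcpt4 was 11.6 and 0.921 normalized counts per library and that of Cma1 38.2 and 8.02. Leaving out single libraries, other normalizations and other count models were not run, as they need counts per library. No paired analysis was possible because the library labels share no replicate number between diets. Counting limits the members Tpsab1 and Fcer1a most, whose mean counts lie under 10, and it limits Ms4a2, Tph1 and Mme, also under 10, as well.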

Other observations

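The authors' own enrichment of terms among genes with a positive fold change placed the members in few terms. Of 373 Gene Ontology terms in the authors' deposited table, 12 held a member, and of 78 KEGG terms, 3 did. Each term is given with the genes that the enrichment listed under it, which need not be all genes of the term. Proteolysis held 19 such genes, 6 of them members: Cma1, Cpa3, Mcpt4, Mcpt8, Tpsab1 and Tpsb2. Under extracellular matrix disassembly 3 genes were listed, all members (Cma1, Tpsab1 and Tpsb2), and under regulation of angiotensin levels in blood 2, Cpa3 and Mcpt4. The KEGG term renin-angiotensin system held 5 genes in the authors' deposited table, of which Cma1, Cpa3 and Mcpt4 are members. Chymases can form angiotensin peptides. The other 2 genes, named after their values were seen, were Ace, the angiotensin-converting enzyme, at log2 1.20 ± 0.17 (adjusted p 1.10e-11) on a mean normalized count of 399.9, and Mme, the peptidase neprilysin, at 2.73 ± 0.998 (adjusted p 0.0245) on a mean of 3.68 in the authors' deposited table. The KEGG term asthma held Fcer1a with Ms4a2, Prg2 and H2-Eb2.

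Eosinophil genes were looked at beside those of basophils. Of 8 markers, 2 rose: Siglecf, a surface lectin (1.10 ± 0.21), and Prg2, the major basic protein gene (1.33 ± 0.48), in the authors' deposited table. Ccr3, shared with the basophil list, was listed without passing. Epx, Ear1, Ear2, Il5ra and Alox15 were not listed.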
